A study of Mus musculus with 13 samples.

Results

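The genes described here are 9 that took a higher share of the negative control pull-downs than of the input RNA in a study of RNAs bound by dAKAP1, an anchoring protein of the outer mitochondrial membrane. They are the keratin genes Krt17, Krt14, Krt5 and Krt10, the calcium-binding protein gene S100a6, the secreted Wnt inhibitor Sfrp1, the adhesion genes Cdh3 and Dsp, and Pecam1. They are 9 of 27071 features in the count table, chosen by their mean share in the negative controls against that in the input, so that difference is given below as a description with no test. Purified KH and Tudor domains of dAKAP1 (KHT), tagged with maltose-binding protein (MBP), served as bait for RNA isolated from MA-10, a line derived from a Leydig cell tumour of the mouse, and were recovered with an antibody against the tag. The groups were negative control pull-downs (NEG, 5 libraries, made with empty anti-MBP beads, MBP or KHT(GDDG) as bait), KHT pull-downs (4 libraries) and the RNA that went in (IPT, 4 libraries, from untreated cells). All groups started from RNA of the same single cell line, and the label given to the NEG libraries does not say which bait each one had. NEG 2 held no counts and was left out, which leaves 4 libraries in each group.

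Keratins are the intermediate filament proteins of epithelia and assemble as pairs of a type I and a type II chain. Krt5 and Krt14 form the filaments of basal cells in stratified epithelia such as epidermis, Krt10 replaces them as cells leave the basal layer, and Krt17 is typical of hair follicles and of injured epidermis. Dsp encodes desmoplakin, which ties keratin filaments to desmosomes, and Cdh3 encodes P-cadherin of basal epithelial cells. Leydig cells are steroid-making cells of the testis interstitium and are not a stratified epithelium. The word epithelial covers only some of the 9 genes: S100a6 and Sfrp1 are active in many tissues, and Pecam1 encodes CD31, an adhesion protein known as an endothelial marker.

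Counts outside the dominant features set the precision of every value below. The 9 features that each took over 0.5% of pooled NEG counts held 96.0% to 98.1% of all counts in NEG libraries, 29.3% to 52.7% in KHT and 26.7% to 38.0% in IPT. The remaining counts numbered 31318 to 49062 in NEG, 929348 to 2101632 in KHT and 1542713 to 2237374 in IPT. Levels are given as counts-per-million (CPM) of these remaining counts, so that 1 count was worth 20.4 to 31.9 CPM in a NEG library, 0.476 to 1.08 in KHT and 0.447 to 0.648 in IPT. Where a gene was at 0, a floor of 3 counts allows a level of up to 61.1 to 95.8 CPM in a NEG library, 1.43 to 3.23 in KHT and 1.34 to 1.94 in IPT. Some libraries stood apart for these genes within their own group. NEG 5 had 47 counts over the 9 genes, against 350, 374 and 558 in NEG 1, 3 and 4. KHT 2 had 1220 counts, against 85, 321 and 488 in KHT 1, 3 and 4, and IPT 1 had 469, against 73, 179 and 177 in IPT 2, 3 and 4. Results that rest on these libraries are given with and without them.

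Promoter sequences, from RefSeq for build GRCm38.p6, were matched for 5 of the 9 genes (Krt14, Krt5, Krt10, S100a6 and Dsp). The 250 bases before the transcript start in RefSeq's promoter table are shown for the 4 of them whose CPM in NEG 1, 3 and 4 lay above all IPT libraries, written 5′ to 3′ on the gene's own strand, with a TATAAA match in capitals. The windows were searched on both strands for TATAAA (the TATA box, present in 12.97% of 27025 windows of this length) and for TGANTCA (the AP-1 motif, present in 6.87%). The windows of Krt5 and S100a6 adjoin the annotated gene end, whereas those of Krt14 and Krt10 lie inside the annotated gene span, which reaches further upstream. The sole match was a TATAAA that starts 26 bases before that transcript start of Krt10. No match says only that these letters are not in the window, and the pull-downs measured RNA, not promoter activity.
Krt14 (GRCm38, chr11:100206031-100206280, minus strand): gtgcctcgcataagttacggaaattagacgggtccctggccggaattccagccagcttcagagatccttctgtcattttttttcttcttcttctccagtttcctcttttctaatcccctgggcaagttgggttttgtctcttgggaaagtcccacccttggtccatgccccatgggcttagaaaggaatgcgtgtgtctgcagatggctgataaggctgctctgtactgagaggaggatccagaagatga
Krt5 (GRCm38, chr15:101712906-101713155, minus strand): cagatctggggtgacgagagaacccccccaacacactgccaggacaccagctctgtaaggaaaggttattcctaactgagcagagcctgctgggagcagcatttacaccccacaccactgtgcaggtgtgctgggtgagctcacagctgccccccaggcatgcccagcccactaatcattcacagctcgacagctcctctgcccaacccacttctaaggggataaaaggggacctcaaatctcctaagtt
Krt10 (GRCm38, chr11:99389365-99389614, minus strand): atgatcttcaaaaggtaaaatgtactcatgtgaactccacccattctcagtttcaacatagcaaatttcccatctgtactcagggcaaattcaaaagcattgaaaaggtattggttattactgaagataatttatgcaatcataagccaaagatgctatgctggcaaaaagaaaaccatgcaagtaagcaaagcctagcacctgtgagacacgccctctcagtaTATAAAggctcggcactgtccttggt
S100a6 (GRCm38, chr3:90612644-90612893, plus strand): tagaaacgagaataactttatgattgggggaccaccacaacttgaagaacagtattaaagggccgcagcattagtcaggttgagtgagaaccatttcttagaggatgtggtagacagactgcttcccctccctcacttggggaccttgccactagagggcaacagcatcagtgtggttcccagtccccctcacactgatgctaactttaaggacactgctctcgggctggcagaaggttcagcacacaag

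Krt17 (ENSMUSG00000035557, chromosome 11, 100256215 to 100261029, GRCm38) had 35, 46, 89 and 2 counts in NEG 1, 3, 4 and 5. That is 1118, 1170.5, 2569.8 and 40.8 CPM. Krt17 stood in KHT 1 to 4 at 2.30, 251, 8.09 and 50.6 CPM (4, 263, 17 and 47 counts), and in IPT 1 to 4 at 21.0, 0, 2.59 and 0.447 CPM (46, 0, 4 and 1 counts). All 4 NEG values lay above all IPT values, and NEG 5 lay below KHT 2 and KHT 4. The NEG 5 value rests on 2 counts, with an exact Poisson 95% interval of 4.94 to 147 CPM. Group means were 1225 ± 1037 CPM in NEG, 77.9 ± 117 in KHT and 6.003 ± 10.04 in IPT (n = 4 each, SD).

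Krt14 (ENSMUSG00000045545, chromosome 11, 100203162 to 100207510), the type I chain of basal cells, followed the same libraries. It stood at 543, 662, 404 and 0 CPM in NEG 1, 3, 4 and 5 (17, 26, 14 and 0 counts). Krt14 reached 93.4 CPM in KHT 2, against 0, 5.23 and 23.7 in KHT 1, 3 and 4 (0, 98, 11 and 22 counts in KHT 1 to 4), and IPT 1 to 4 had 5.01, 0, 1.30 and 0 (11, 0, 2 and 0 counts). The 3 NEG libraries with counts lay above every KHT and IPT library, and NEG 5, KHT 1, IPT 2 and IPT 4 had none.

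Krt5 (ENSMUSG00000061527, chromosome 15, 101707069 to 101712905) encodes the type II partner of Krt14. It had 4, 3, 4 and 0 counts in NEG 1, 3, 4 and 5, which is 128, 76.3, 115 and 0 CPM. In KHT 1 to 4 Krt5 had 0.575, 22.9, 0.952 and 3.23 CPM (1, 24, 2 and 3 counts), and IPT 1 to 4 had 4.56, 0, 1.30 and 0 (10, 0, 2 and 0 counts). KHT 2 and IPT 1 were again the highest of their groups. The NEG counts are so few that the 95% interval of NEG 3, 15.7 to 223 CPM, spans the values of NEG 1 and NEG 4.

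Krt10 (ENSMUSG00000019761, chromosome 11, 99385254 to 99397449), the type I keratin of suprabasal cells, stood at 128, 102, 231 and 0 CPM in NEG 1, 3, 4 and 5 (4, 4, 8 and 0 counts). It stood at 2.30, 7.63, 4.76 and 18.3 CPM in KHT 1 to 4 (4, 8, 10 and 17 counts) and at 3.65, 1.22, 0 and 1.34 in IPT 1 to 4 (8, 2, 0 and 3 counts). In KHT the highest library was KHT 4, not KHT 2 as for the other 3 keratins.

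The balance between Krt14 and Krt17 was not used to choose the genes and varied between libraries. Krt14 made up 32.7%, 36.1% and 13.6% of the counts of the pair in NEG 1, 3 and 4. The exact binomial 95% intervals of NEG 3 (25.1% to 48.3%) and NEG 4 (7.63% to 21.8%), the highest and lowest of these libraries, do not overlap. They cover counting error only and may be too narrow, so a difference between these libraries was not established. In KHT 2, the library with most counts of the pair, the share was 27.1% (22.6% to 32.0%), and in IPT 1 it was 19.3% (10.0% to 31.9%). Krt14, Krt17 and their relative Krt16 have closely similar sequences, so how reads were split between them is uncertain.

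S100a6 (ENSMUSG00000001025, chromosome 3, 90612894 to 90614414) is a small calcium-binding protein of the S100 family. It held 57.5% to 72.9% of the counts of the 9 genes in NEG 1, 3 and 4 and KHT 2, 3 and 4, and 66.3% in IPT 1, but 34.0% in NEG 5, 29.4% in KHT 1 and 26.0% to 44.1% in IPT 2, 3 and 4. It had 215, 215, 407 and 16 counts in NEG 1, 3, 4 and 5, or 6865, 5471, 11752 and 326 CPM. In KHT 1 to 4 S100a6 had 14.4, 685, 104 and 323 CPM (25, 719, 218 and 300 counts), and IPT 1 to 4 had 142, 11.6, 40.8 and 34.9 (311, 19, 63 and 78 counts). NEG 5, with a 95% interval of 186 to 529.6 CPM, lay below KHT 2 and close to KHT 4. Within KHT the values spanned 14.4 to 685 CPM, so that the mean of 282 ± 299 (SD, n = 4) describes no single library.

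Sfrp1 (ENSMUSG00000031548, chromosome 8, 23411383 to 23449632), which binds Wnt proteins outside the cell, had 9, 19, 7 and 2 counts in NEG 1, 3, 4 and 5. These are 287, 483, 202 and 40.8 CPM. Its levels in KHT 1 to 4 were 1.15, 36.2, 3.81 and 21.5 CPM (2, 38, 8 and 20 counts), and IPT 1 to 4 had 4.10, 0.612, 2.59 and 0.894 (9, 1, 4 and 2 counts). All NEG values lay above all KHT and IPT values, though the NEG 5 value rests on 2 counts. KHT 2 and IPT 1 were the highest of their groups here too.

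Cdh3 had another distribution in NEG and IPT, and Pecam1 in KHT and IPT. Cdh3 (ENSMUSG00000061048, chromosome 8, 106510852 to 106556911) had 30, 33, 9 and 22 counts in NEG 1, 3, 4 and 5, or 958, 839.7, 259.9 and 448 CPM. KHT 1 to 4 had 10.4, 33.4, 7.14 and 31.2 CPM (18, 35, 15 and 29 counts), and IPT 1 to 4 had 14.1, 9.19, 49.3 and 14.3 (31, 15, 76 and 32 counts). NEG 5 lay above NEG 4, unlike for the keratins, and IPT 3, not IPT 1, was the highest input library.

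Pecam1 (ENSMUSG00000020717, chromosome 11, 106654213 to 106715281) had 35, 24, 20 and 5 counts in NEG 1, 3, 4 and 5, or 1118, 611, 577 and 102 CPM. KHT 1 to 4 had 29, 29, 33 and 50 counts (16.7, 27.6, 15.7 and 53.8 CPM), and IPT 1 to 4 had 38, 25, 23 and 32 counts (17.3, 15.3, 14.9 and 14.3 CPM). Raw counts of Pecam1 thus lay between 20 and 50 in 11 of the 12 libraries, although the counts outside the dominant features differed between NEG and the other groups by more than an order of magnitude. In input it was the steadiest of the 9 genes (15.5 ± 1.31 CPM, SD, n = 4).

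Dsp (ENSMUSG00000054889, chromosome 13, 38151294 to 38198577) had 1, 4, 0 and 0 counts in NEG 1, 3, 4 and 5, or 31.9, 102, 0 and 0 CPM. KHT 1 to 4 had 1.15, 5.72, 3.33 and 0 CPM (2, 6, 7 and 0 counts), and IPT 1 to 4 had 2.28, 6.74, 3.24 and 12.96 (5, 11, 5 and 29 counts). Its higher NEG mean (33.4 ± 48.0 CPM, against 6.30 ± 4.83 in IPT; SD, n = 4 each) rests on 5 counts, 4 of them in NEG 3, and the ranges of NEG and IPT overlap.

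**Figure D1:**
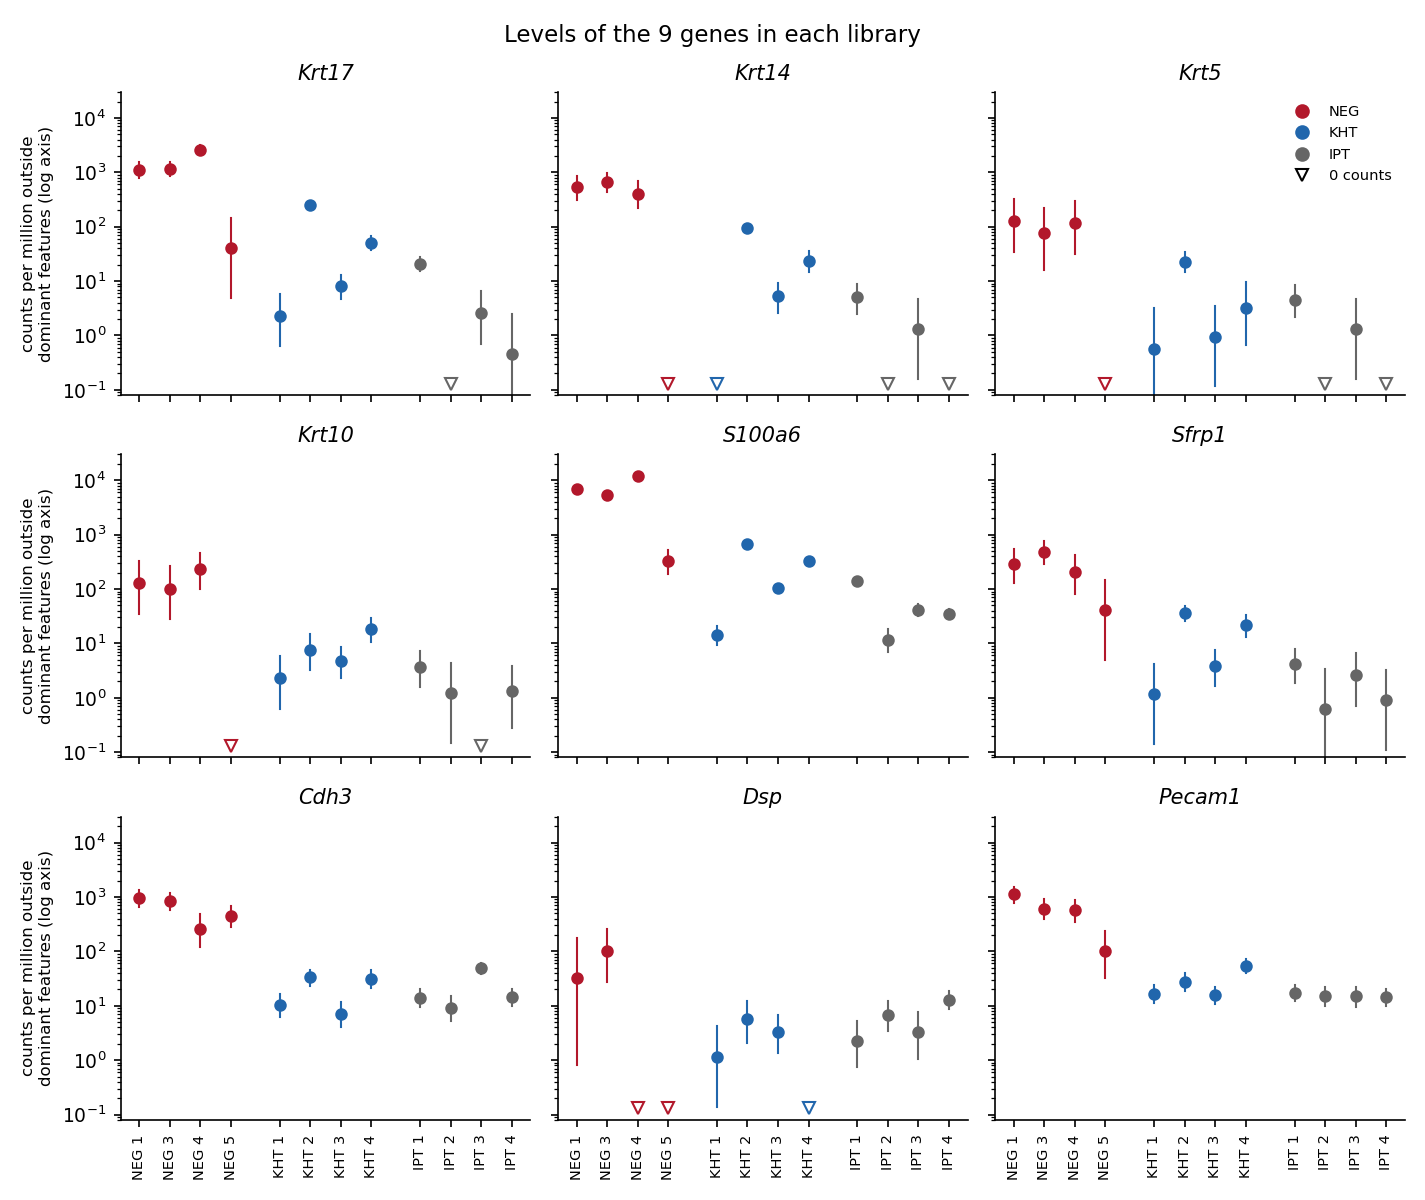
CPM outside the dominant features (log axis) for each of the 9 genes in the 12 libraries, with exact Poisson 95% intervals as bars and open triangles for 0 counts. NEG 1, 3 and 4, KHT 2 and IPT 1 lead their groups for Krt17, Krt14, Krt5, S100a6 and Sfrp1, while Pecam1 is nearly level across IPT (14.3 to 17.3 CPM).

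The size of the NEG excess depended on what a count was divided by. In CPM outside the dominant features, the mean of NEG was 204 times that of IPT for Krt17, 255 times for Krt14, 124 times for Sfrp1, 107 times for S100a6 and 74.1 times for Krt10. The ratio was 54.6 for Krt5, 38.9 for Pecam1, 28.8 for Cdh3 and 5.30 for Dsp, the smallest of the 9. In CPM of all counts, the same ratios were 7.24 for Krt17, 9.65 for Krt14, 5.07 for Sfrp1, 3.78 for S100a6, 2.58 for Krt10 and 1.91 for Krt5. On this second scale Pecam1 (1.43) and Cdh3 (1.25) were nearly level and Dsp was lower in NEG (0.233). So 9 of 9 means were higher in NEG than in IPT on the first scale, for which the genes were chosen, and 8 of 9 on the second. Over all 10714 features tested with edgeR, the median log2 fold change was -1.50 with library sizes outside the dominant features. Under total counts it was -5.90. Without NEG 5, or without IPT 1, 9 of 9 means were higher in NEG on the first scale. Ranges of NEG and IPT did not overlap for Krt17, S100a6, Sfrp1, Cdh3 and Pecam1 on the first scale, and the genes were chosen for this difference. At 20.4 to 31.9 CPM, 1 count in a NEG library lay above the highest IPT values of Sfrp1 (4.10) and Pecam1 (17.3). For Sfrp1 and Pecam1, 1 count in each NEG library would thus have set the ranges apart. The shares of all features with a higher NEG mean, or with ranges apart, were not computed.

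Single libraries moved these ratios by more than 1.5 times. IPT 1 held most input counts of the keratins, and without it the ratio of NEG to IPT in CPM outside the dominant features was 1209 for Krt17, 931 for Krt14, 185 for Krt5, 135 for Krt10, 209.7 for S100a6 and 185 for Sfrp1. In CPM of all counts it was then 47.3 for Krt17, 39.4 for Krt14, 7.19 for Krt5, 4.79 for Krt10, 7.75 for S100a6 and 7.98 for Sfrp1. The Krt17 mean of IPT was 1.01 CPM without IPT 1, from 5 counts. Without NEG 4 the Krt17 ratio was 129 and that of Krt10 49.3 on the first scale. Cdh3 rested on IPT 3, without which its ratio was 49.95 on the first scale and 2.02 on the second, and without NEG 3 the second was 0.998. Dsp rested on NEG 3 and IPT 4: its ratio was 1.69 without NEG 3 and 8.18 without IPT 4 on the first scale, and 0.0473 and 0.386 on the second. Without NEG 3 the ratios on the second scale were 2.84 for Sfrp1 and 6.05 for Krt14.

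Set against KHT, the NEG means also depended on the scale, and values over all features were not computed for this comparison. In CPM outside the dominant features, NEG means were 11.6 (Krt5) to 30.5 (Cdh3) times those of KHT, and without KHT 2 they were 13.6 (Krt10) to 60.3 (Krt17) times those of KHT. In CPM of all counts the NEG means were 0.523 (Krt5) to 1.61 (Cdh3) times those of KHT, and ratios below 1 rested on KHT 2 for several genes. Without KHT 2 the ratio of NEG to KHT on that scale was 3.04 for Krt17, against 0.741 with it, 2.23 for Krt14 (0.656), 2.34 for Krt5 (0.523), 1.61 for Sfrp1 (0.866), 1.12 for Dsp (0.702) and 2.03 for S100a6 (1.02). Krt10 (0.649) and Pecam1 (0.9696) stayed below 1 without it. Pecam1 was at 1.26 without KHT 4 and 1.22 without NEG 5, Sfrp1 at 1.09 without NEG 5, and Dsp at 0.143 without NEG 3. The highest Krt17 value of all 12 libraries on that scale was in KHT 2, at 134 CPM, against 21.6, 39.6, 59.2 and 1.64 in NEG 1, 3, 4 and 5. KHT 2 was likewise the highest library for Krt14 (50.1 CPM of all counts), Krt5 (12.3), S100a6 (368) and Sfrp1 (19.4), above NEG maxima of 22.4 for Krt14, 2.66 for Krt5, 271 for S100a6 and 16.3 for Sfrp1.

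**Figure D2:**
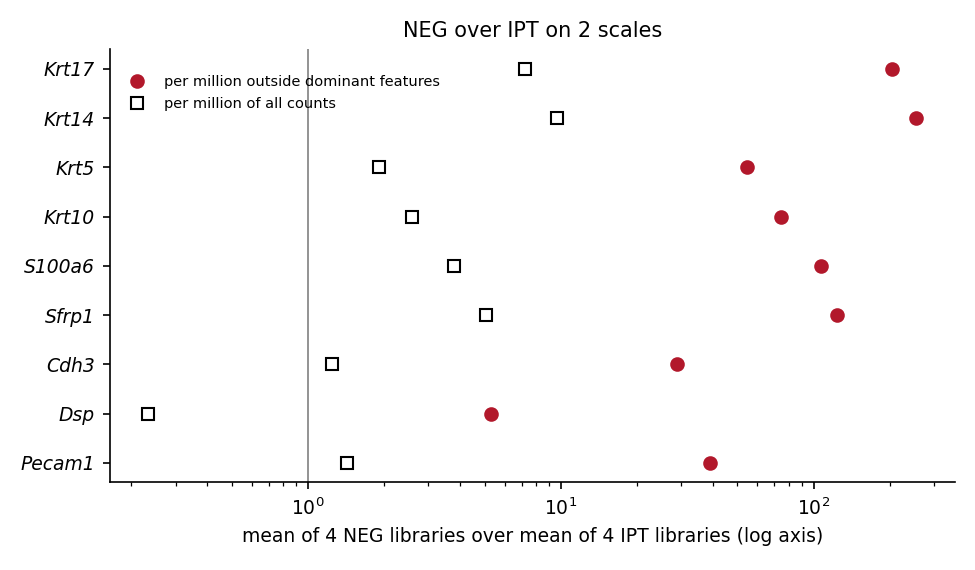
Mean of the 4 NEG libraries over the mean of the 4 IPT libraries for each gene (log axis), in CPM outside the dominant features (filled circles) and in CPM of all counts (open squares). Ratios of 5.30 to 255 on the first scale become 0.233 to 9.65 on the second.

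Within NEG, keratin and Leydig cell transcripts were unequally spread over the libraries. The 4 keratins together made up 1916, 2010.1, 3321 and 40.8 CPM in NEG 1, 3, 4 and 5. The 10 Leydig cell markers (Star, Cyp11a1, Hsd3b1, Hsd3b6, Cyp17a1, Lhcgr, Insl3, Nr5a1, Fdx1 and Scarb1, genes of steroid synthesis, its regulation and hormone response) made up 63.9, 356, 375 and 1977 CPM in the same libraries. These are 2, 14, 13 and 97 counts. Features of any kind with counts were also fewer in the first 3 of these libraries (2173, 4082 and 3355 in NEG 1, 3 and 4, and 7047 in NEG 5). The 10 markers had a median log2 fold change of NEG against IPT of -1.57, near that of all features tested (-1.74). NEG 5 thus had a Leydig marker level within the range of KHT (1470 to 2200.5) and IPT (1468 to 2668), and a keratin level of 2 counts. In every KHT and IPT library all 10 markers had counts, so the cell type named on the labels is borne out there. KHT 2 and IPT 1, the keratin-rich libraries of their groups, had the lowest Leydig marker sums of their groups, 1470 CPM in KHT 2 and 1468 in IPT 1. KHT 1 was close to KHT 2 (1493 CPM) with few keratin counts (5.18 CPM). These sums are shares of RNA and do not count cells of any type. The source of the keratin counts was not tested.

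**Figure D3:**
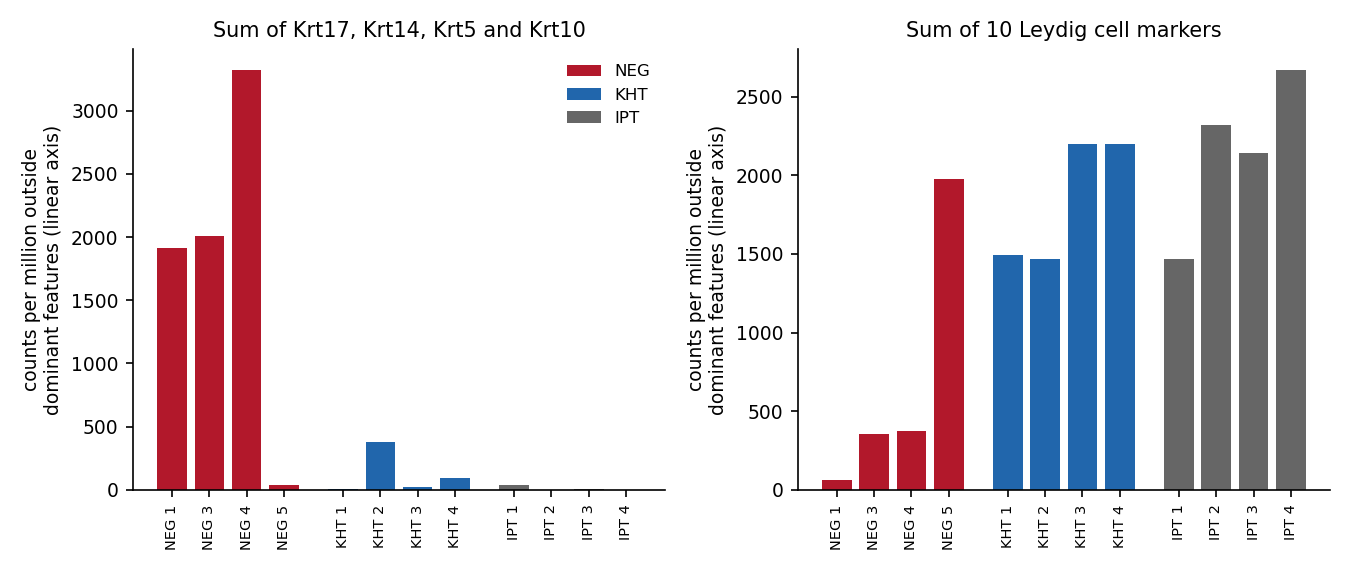
Summed CPM outside the dominant features of Krt17, Krt14, Krt5 and Krt10 (left) and of 10 Leydig cell markers (right), one bar for each library (linear axes from 0). NEG 1, 3 and 4 show 1916 to 3321 CPM of keratins and 63.9 to 375 of Leydig markers, and NEG 5 shows 40.8 and 1977.

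Other keratins were mostly near 0. Of 24 further type I keratins 5 had a row in the table (Krt16, Krt19, Krt26, Krt28 and Krt42), with 1 NEG count in all, a single Krt42 count in NEG 3. Of 23 further type II keratins 9 had a row, and 37 of their 47 NEG counts belonged to Krt7, a type II keratin of simple epithelia and ducts. Krt7 had 10, 7, 20 and 0 counts in NEG 1, 3, 4 and 5 (319, 178, 577 and 0 CPM). It had 2, 94, 5 and 19 counts in KHT 1 to 4 (1.15, 89.6, 2.38 and 20.4 CPM) and 14, 0, 19 and 4 counts in IPT 1 to 4 (6.38, 0, 12.3 and 1.79 CPM). Krt7 was therefore high in NEG 1, 3 and 4 and in KHT 2, as the 3 keratins Krt17, Krt14 and Krt5 were, and in input it was highest in IPT 3. Krt8, the usual type II keratin of simple epithelia, had 0 counts in every NEG and KHT library and 2 in IPT 1. Krt16 and Krt19 had counts in KHT 2 alone (4 and 2).

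The wider lists of epithelial and other cell type genes were tested for NEG against IPT with edgeR's quasi-likelihood test in a fit of all 12 libraries, leaving out the 9 genes themselves. The fit treats the NEG libraries as replicates, although they may differ in bait and the labels do not say which bait each had. Bait and library therefore cannot be told apart in the SE and p-values of NEG against IPT. Of 10714 features tested, 3.64% were higher and 32.5% lower in NEG at a Benjamini-Hochberg adjusted p under 0.05, and the median log2 fold change over all of them was -1.74. Of the 191 other list genes 114 had a row and 37 passed the filter on low counts. Of those 37, 3 were higher (8.11%) and 7 lower (18.9%), and the median over the 37 was -1.64. The 3 higher genes were Krt7 (log2 fold change 5.41, SE 1.71, edgeR adjusted p = 0.0363), S100a10 (3.11, SE 0.81, edgeR adjusted p = 0.00877) and Itga6 (2.99, SE 0.96, edgeR adjusted p = 0.0241). Without NEG 1 the count of higher genes was 1. The count of lower genes was 2 without NEG 1, 3 without NEG 3, 1 without NEG 4, 12 without NEG 5, 3 without IPT 3 and 4 without IPT 4.

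S100a10, a relative of S100a6 that pairs with annexin A2, had 63, 80, 137 and 15 counts in NEG 1, 3, 4 and 5 (2012, 2036, 3956 and 306 CPM). Its levels were 151, 560.5, 209 and 271 CPM in KHT 1 to 4, and IPT 1 to 4 had 160.5, 238, 226 and 233. NEG 1, 3 and 4 lay above all KHT and IPT libraries, and KHT 2 was the highest of KHT, but IPT 1 was the lowest of IPT. The call held in each of the 12 fits without 1 library (edgeR adjusted p 0.000420 to 0.0289), while under total counts S100a10 was lower in NEG (log2 fold change -1.44, edgeR adjusted p = 0.0267). Itga6, the integrin alpha chain of hemidesmosomes, had 2, 6, 1 and 0 counts in NEG 1, 3, 4 and 5. Its call ended without NEG 1 (edgeR adjusted p = 0.0572) or NEG 3 (0.289), and its direction turned under total counts (-1.31, edgeR adjusted p = 0.110). The call of Krt7 ended without any one of NEG 1 (edgeR adjusted p = 0.07999), NEG 3 (0.0646), NEG 4 (0.122), IPT 1 (0.0609), IPT 2 (0.0574) and IPT 4 (0.0647). It also ended without the filter (0.0738) and under total counts (0.95, edgeR adjusted p = 0.525).

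The 7 lower genes were Star, Fdx1 and Scarb1 of steroidogenesis, the tight junction gene F11r, S100a1, the oxytocin receptor Oxtr and the desmosomal cadherin Dsc3. F11r was at 0 in all 4 NEG libraries, against 271 counts in IPT, which makes it at least 1.83-fold lower in NEG in CPM outside the dominant features, with the floor of 3 counts over the group. Its call (edgeR with TMM scaling, adjusted p = 0.0144) held in all 12 fits without 1 library (0.0136 to 0.0406). S100a1 was also at 0 in NEG, against 165 counts in IPT, which makes it at least 1.12-fold lower. Its edgeR adjusted p was 0.0405 with TMM scaling and 0.0668 with library sizes outside the dominant features. With those library sizes the median log2 fold change of all features was -1.50. The least folds of F11r and S100a1 are smaller than that median fall, so they do not show a loss beyond that of most features. Dsc3 had 4 NEG counts, all in NEG 5, and 150 to 178 counts in each IPT library (log2 fold change -2.001, edgeR adjusted p = 0.0338). Star (-2.36, edgeR adjusted p = 0.0277), Scarb1 (-2.78, 0.0254), Oxtr (-2.22, 0.0234) and Fdx1 (-1.99, 0.0433) had log2 fold changes of -1.99 to -2.78, against a median of all features of -1.74. These sizes rested on single libraries: all NEG counts of Star (7) and Oxtr (4), as of Dsc3, were in NEG 5, and those of Scarb1 (2) in NEG 3, so without that library these genes are at 0 in NEG and no fold is given. Without NEG 5 the log2 fold change of Fdx1 was -3.04, against a median of all features of -6.24 in that fit. The calls other than that of F11r also ended without 1 library. They were lost in 3 of these 12 fits for Scarb1 (without NEG 1, 4 or 5) and for Oxtr (without NEG 1, 3 or 4), and in 5 for Star (without NEG 1, 3 or 4, IPT 3 or IPT 4). Dsc3 lost its call in 5 (without NEG 1, 3 or 4, IPT 2 or IPT 3), S100a1 in 6 (without any NEG library, IPT 3 or IPT 4) and Fdx1 in 10 (all but those without NEG 5 or IPT 1). Their edgeR adjusted p-values in these fits reached 0.109. With library sizes outside the dominant features Star (edgeR adjusted p = 0.0507), Fdx1 (0.0653) and Dsc3 (0.0675) lost theirs. Halved values ended the calls of Star (edgeR adjusted p = 0.0550), Fdx1 (0.0634), Scarb1 (0.0514), S100a1 (0.112) and Dsc3 (0.0530). The 2 groups alone ended those of Fdx1 (edgeR adjusted p = 0.0839), S100a1 (0.0583) and Dsc3 (0.0684), and limma voom those of Fdx1 (0.0778) and S100a1 (0.134). With KHT 2 and IPT 1 both left out, Scarb1 (edgeR adjusted p = 0.0534) and Dsc3 (0.0510) lost theirs.

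Several defining genes of epithelial cells had 0 counts in NEG. E-cadherin (Cdh1) had 0 counts in all NEG and KHT libraries and 1 in IPT 3. Epcam, an adhesion molecule of most epithelia, had 0 counts in every NEG library, against 7 to 20 in each KHT library and 4 to 29 in each IPT library. Trp63, the regulator of basal epithelial cells, had 0 counts in NEG and IPT and 2 each in KHT 2 and KHT 4. Over the 4 NEG libraries together, 0 counts allow up to 19.4 CPM, above the pooled input level of Epcam (8.41 CPM) and of Cdh1 (0.131), so lower levels of these genes in NEG were not detectable at this depth. Not all genes of this kind were at 0. Epithelial junction and adhesion genes other than Cdh3 (7 of 9 with a row, 3 tested) had 32 NEG counts in all, from only 1 gene in each NEG library. They summed to 81.5 to 346 CPM in a NEG library, 144 to 187 in KHT and 135 to 181 in IPT. F11r was lower, whereas Tjp1 was not called, with an estimate above 0 (log2 fold change 0.75, SE 0.46, edgeR adjusted p = 0.189). The other desmosome genes (7 of 14 with a row, 4 tested, of which Dsc3 was lower) summed to 0 to 152.7 CPM in a NEG library, 158 to 191.5 in KHT and 149.99 to 184 in IPT. The genes of hemidesmosomes and basement membrane (10 of 10 with a row, 5 tested, of which Itga6 was higher), led in NEG by Dst (73 counts) and Plec (50 counts), summed to 319 to 1427 CPM in NEG, 1552 to 1897 in KHT and 1638 to 1933 in IPT. Cornified layer genes had 7 NEG counts in all, 4 of them of Ivl in NEG 1. Epithelial regulators (11 of 15 with a row, 3 tested, none called) had 22 NEG counts, 12 of them of the splicing regulator Esrp2 and 8 of the transcription factor Ehf.

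Markers of other cell types also had few NEG counts. The other endothelial markers (10 of 14 with a row, 2 tested, none called) had 8 NEG counts in all, 6 of them of Cdh5, against 84 of Pecam1. Cdh5 itself stood at 0 to 57.7 CPM in NEG, 31.2 to 75.2 in KHT and 36.9 to 104 in IPT. Fibroblast markers had 4 NEG counts and summed to 0 to 63.9 CPM in a NEG library, against 0.912 to 5.36 in IPT. Mammary secretory and myoepithelial markers had 5, of which 4 were of Oxtr, and melanocyte and immune markers had none. Over the NEG libraries together, 0 counts allow up to 19.4 CPM. The highest pooled input levels were 4.47 CPM for melanocyte markers (Mitf) and 2.76 for immune markers (Cd74), so lower levels of these in NEG were not detectable. The other secreted Wnt inhibitors, relatives of Sfrp1, had 10 NEG counts in all, 6 of them of Dkk3 in NEG 5.

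The comparison of KHT with IPT, which asks which RNAs the bait enriched over the RNA that went in, was not used to choose the genes, although it shares the IPT libraries with that choice. In this contrast 0.00933% of 10714 features were higher (1, the pseudogene Rpl38-ps2, named after its value was seen; edgeR adjusted p = 0.0412) and 0% were lower. Krt17, Krt14, S100a6, Sfrp1, Cdh3 and Pecam1 were tested, and Krt5, Krt10 and Dsp did not pass the filter on low counts. That filter was run on all 12 libraries, NEG included, so which genes were tested was not independent of their choice. Krt14 and Sfrp1 passed it only with NEG counted, since outside NEG KHT 2 and KHT 4 alone reached its level. None of the 6 passed in edgeR, DESeq2 or limma voom. The median log2 fold change of all features was 0.01.

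Estimates for the keratins and S100a6 were large and imprecise. Krt17 averaged 77.9 ± 117 CPM in KHT and 6.003 ± 10.04 in IPT (SD over 4 libraries each), with a log2 fold change of 3.65, SE 1.71 (edgeR adjusted p = 1.00). Krt14 averaged 30.6 ± 43.1 in KHT and 1.58 ± 2.37 in IPT (4.03, SE 1.62, edgeR adjusted p = 1.00). For S100a6 the means were 282 ± 299 in KHT and 57.3 ± 57.7 in input (2.31, SE 1.10, edgeR adjusted p = 1.00), and for Sfrp1 15.7 ± 16.4 in KHT and 2.05 ± 1.62 in IPT (2.74, SE 1.07, edgeR adjusted p = 1.00). The ranges of KHT and IPT overlapped for all 4: KHT 1 lay within the input range for each, and KHT 3 did for Krt17, S100a6 and Sfrp1. Without KHT 2 the log2 fold change of Krt17 was 1.63, and without IPT 1 it was 6.21. With both left out, a choice made after their counts were seen, it was 4.20. Krt14 then stood at 4.01, S100a6 at 2.33 and Sfrp1 at 2.40 on the log2 scale, none of them passing. Counts in IPT 2, 3 and 4 were 0, 4 and 1 for Krt17, 0, 2 and 0 for Krt14 and 1, 4 and 2 for Sfrp1. The estimates of these genes without IPT 1 thus rest on few input counts. Without the filter, Krt10 had a log2 fold change of 2.15, SE 0.64 (edgeR adjusted p = 0.224), Krt5 2.001, SE 0.74 (0.735) and Dsp -1.28, SE 0.73 (0.849).

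Pecam1 and Cdh3 differed less between KHT and IPT. Pecam1 averaged 28.5 ± 17.7 CPM in KHT and 15.5 ± 1.31 in IPT (log2 fold change 0.83, SE 0.46, edgeR adjusted p = 1.00), and was higher in KHT in each of the 22 other fits, by 0.36 to 1.05. Cdh3 averaged 20.5 ± 13.7 in KHT and 21.7 ± 18.5 in IPT (-0.12, SE 0.57, edgeR adjusted p = 1.00), with a sign that turned without KHT 1 (0.12), KHT 3 (0.20) or IPT 3 (0.64) and in limma voom (0.14). An adjusted p that misses the threshold does not show that KHT and IPT were alike.

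**Figure D4:**
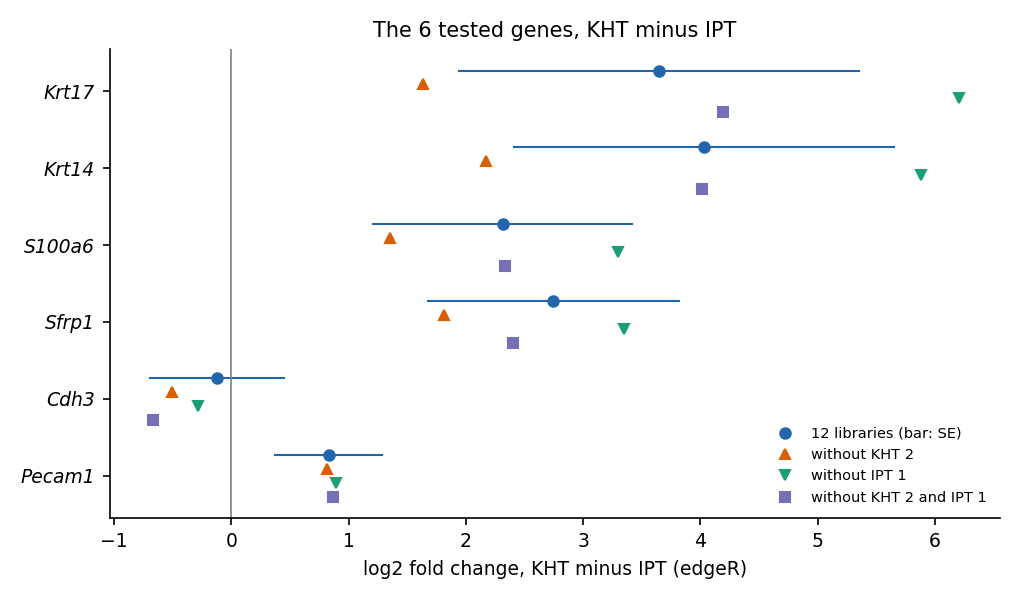
Log2 fold change of KHT minus IPT from edgeR for the 6 genes that passed the filter, with all 12 libraries (circles, with SE as bars) and with KHT 2, IPT 1 or both left out. Krt17 lies between 1.63 and 6.21 and Krt14 between 2.17 and 5.88 depending on these 2 libraries, and Pecam1 stays between 0.82 and 0.89.

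Genes with the most similar distribution over the libraries were found among 737 named genes with at least 20 NEG counts. Each gene's CPM values were scaled to sum to 1 over the 12 libraries, and the distance was the summed absolute difference from the 9 genes together, multiplied by 0.5, where 0 means the same distribution and 1 no overlap. S100a6 gives most of that summed profile. The 8 closest were Rpl10l (0.0290), Tmsb10 (0.0320), Camta1 (0.0576), Olfr919 (0.0882), Rps27 (0.0888), Tubb3 (0.0997), Rps13 (0.101) and Tmem170 (0.105). The 9 genes themselves lay at 0.0547 (S100a6) to 0.529 (Dsp) from their own sum.

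Rpl10l, a relative of the ribosomal protein gene Rpl10, had 104, 112, 163 and 4 counts in NEG 1, 3, 4 and 5. It had 4, 621, 114 and 202 counts in KHT 1 to 4 and 160, 0, 37 and 9 counts in IPT 1 to 4, with the same leading libraries as Krt17. Tmsb10, a thymosin that binds actin monomers, had 159, 183, 247 and 3 counts in NEG 1, 3, 4 and 5. Its KHT counts were 19, 685, 158 and 258 and its IPT counts 155, 12, 74 and 35. Olfr919, an olfactory receptor gene, had 11, 15, 17 and 0 counts in NEG, 0, 87, 0 and 3 in KHT, and 23, 0, 0 and 0 in IPT. Tubb3, a beta-tubulin of neurons, was likewise highest in KHT 2 among KHT (87 counts, against 5 to 34 in the others). Rps13, of the small ribosomal subunit, shared the NEG pattern but not the rest: it had 14 counts in KHT 2, and its highest input library was IPT 4 (323 counts). These distances are dominated by NEG, where all 8 genes had 10 or more counts in each of NEG 1, 3 and 4 and at most 17 in NEG 5. Ribosomal protein and thymosin genes have near-identical copies elsewhere in the genome, so their counts are uncertain.

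**Figure D5:**
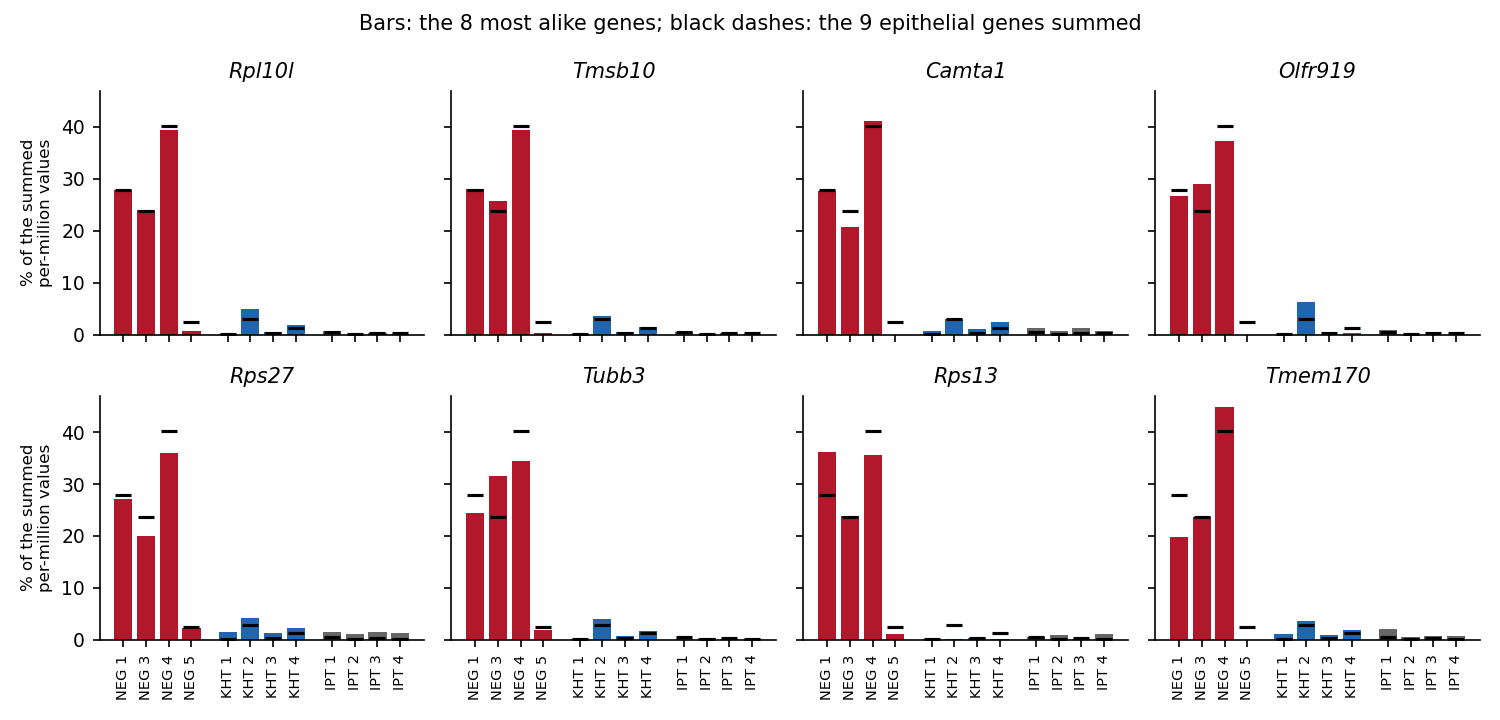
Share of each gene's summed CPM values that falls in each of the 12 libraries (bars), for the 8 genes with the most similar distribution, with the 9 genes together as black dashes. NEG 1, 3 and 4 take most of each profile, and KHT 2 leads the KHT libraries for all but Rps13.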

How the data were processed

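The 13 libraries were made with a stranded kit for total RNA that removes ribosomal RNA, per the labels' protocols, whereas polyA RNA stands in the molecule field. Values are the authors' deposited expected counts (estimated counts) for each gene, unscaled and already whole. Per the submitters' processing notes, the tools named are kallisto and DESeq2 and the builds GRCm38 and mm10. Their versions and roles are not given in the sources used here. Symbols were matched for 27004 of 27071 features. Values of 2 outnumbered values of 1 in every library (842 against 295 features in NEG 1), so both mates of a pair may have been counted, and intervals and floors, which cover counting error only, may be too narrow.

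Groups were taken from titles, because the description of the KHT samples speaks of negative controls. NEG 2 was all 0, so 12 libraries were fitted. Tests used edgeR 4.0.16 in R 4.3.3 (TMM, filterByExpr, robust quasi-likelihood, 3 groups in 1 fit, Benjamini-Hochberg over 10714 features, threshold 0.05, two-sided) and were tested on simulated data. The SE was the log2 fold change divided by the square root of F. DESeq2 1.42.0 and limma 3.58.1 voom were alternatives. Nothing in the labels says that libraries came from separate cultures, so p-values measure the spread between these libraries. In NEG that spread, and each SD, may include differences of bait. The 9 genes, the 15 lists (200 genes) and the tests were chosen with earlier results of these data known. Named were the 9 genes, per list up to 3 genes with most NEG counts and any called where 5 or fewer, and the 8 most alike named genes, of which the text describes some. Coordinates and promoters came from RefSeq tables of GRCm38.p6, matched by symbol.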

Additional observations from a re-analysis of the deposited data

Results flagged for a closer look

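Of 27 sets of 4 libraries (9 genes in 3 groups), 3 had a single library far from the rest of its group by Dixon's test of the gap over the range. Its nominal rate of about 1 in 20 assumes independent, normally distributed values. CPM from few counts in shared libraries are not of that kind, so the rate is no guide here. Krt17 in IPT 1 stood at 21.0 CPM outside the dominant features, with a group median of 1.52, and the gap to the next library took 0.876 of the group's range. Krt5 in KHT 2 stood at 22.9 CPM, with a group median of 2.09 and a gap of 0.881 of the range. Cdh3 in IPT 3 stood at 49.3 CPM, with a group median of 14.2 and a gap of 0.872 of the range.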

How the results depend on the processing

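No member was called for KHT against IPT, higher or lower, under any alternative tried, and no other list gene was (0 of each). Cdh3 changed sign in limma voom (0.14) and ranged from -0.50 to 0.64 when 1 library was left out, and the cause was not tested. For NEG against IPT, 3 list genes were higher, against 0 under total counts, 8 without the filter, 1 with halved values and 1 to 4 with 1 library left out. Of list genes 7 were lower, against 35 under total counts, 3 with counts outside the dominant features as library size, 12 without the filter, 12 in DESeq2, 14 with the replicate block, 4 with halved values and 1 to 12 with 1 library left out. Over all features, 390 were higher, against 50 under total counts and 987 without the filter, and 3482 were lower, against 10423 under total counts, 1901 with halved values, 2046 in the 2 groups alone, 1792 without NEG 1 and 5447 without NEG 5. For KHT against IPT, 1 was higher, against 0 to 43 in the alternatives (43 without the filter), and 0 lower, against 0 to 13 (13 without the filter). The median of all features for NEG against IPT was -1.74, against -1.85 with DESeq2 size factors, -1.50 with counts outside the dominant features, -5.90 under total counts, -6.41 with the replicate block and -6.24 without NEG 5. Means of all 9 genes were higher in NEG than in IPT with 11 or 7 dominant features (thresholds of 0.1% and 1%) and without any 1 NEG library or IPT 1. In CPM of all counts the mean of Dsp was lower in NEG (0.233 times that of IPT). The 9 genes were chosen for a higher share in NEG, so these settings describe the choice and lend it no support. The share over all features was not computed. Same-numbered KHT and IPT libraries correlated in their deviations from group means by 0.13, -0.33, 0.20 and 0.08, and KHT 2 correlated best with IPT 1 (0.51). These values gave no ground for pairing libraries by number, but they cannot show that the libraries were unpaired. The replicate block ended the NEG against IPT calls of Scarb1 (edgeR adjusted p = 0.0560) and S100a1 (0.0506). With the replicate block Krt17 stood at 2.43 and Krt14 at 3.30 on the log2 scale for KHT against IPT.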
